A study of Mus musculus with 6 samples.

Results

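Integrin genes of leukocytes were followed in RNA-seq of monocytic myeloid-derived suppressor cells (M-MDSCs) from the bone marrow of WT mice and of mice whose myeloid cells lack mTOR. The 10 genes Itgad, Itgam, Itgal, Itgax, Itgb2, Itga4, Itgb1, Itgb7, Itga6 and Itgb3 were taken by name from a table of 34745 gene records. Itgam has 2 records there, which were kept apart, so the 10 genes gave 11 records. The genes were chosen by a rule that used the counts of this same comparison, with the difference of Itgad already known, and their differences between groups are therefore given as a description, without p-values. The count of members past the thresholds is given only to set it beside that of all records, and intervals cover counting error only. All animals were Mus musculus. The methods name C57BL/6 for the WT mice but give no strain or backcrossing for the Lyz-Cre and floxed mTOR lines. They therefore do not show that the groups shared a background. The mTOR-/- group came from mice in which a Lyz-Cre allele, active in cells that express lysozyme, acts on a floxed mTOR gene, and they are called Lyz-mTOR mice. Controls were WT C57BL/6 mice, and the sources describe no control with the Cre or the floxed allele alone. Each group had 3 libraries, 6 in all. The sample labels call the cells sorted fresh MDSCs, while the design text of the series and the paper's discussion call them induced. The methods describe induction of bone marrow cells with GM-CSF and IL-6, but their RNA-seq part does not say which cells were used. The exact source of the cells therefore cannot be told. The paper defines M-MDSCs as CD11b+Ly6G-Ly6Chigh and describes staining for these 3 proteins, without giving the gate of the sort. The labels give neither the age of the mice nor whether animals were pooled. They also do not say that the libraries came from separate mice, so the p-values given for other genes measure only the spread between these libraries.

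Integrins are receptors of 1 alpha and 1 beta chain that bind matrix proteins or ligands on other cells. The beta2 chain, Itgb2 (CD18), is the partner of the 4 leukocyte alpha chains Itgal (CD11a), Itgam (CD11b), Itgax (CD11c) and Itgad (CD11d). These receptors serve adhesion to endothelium, phagocytosis of complement-coated particles and contact between immune cells. CD11b is a defining surface protein of MDSCs and was stained to analyse them, CD11c is best known from dendritic cells, and CD11d from macrophages of the spleen. The alpha4 chain, Itga4, pairs with Itgb1 in a receptor for VCAM-1 and with Itgb7 in a receptor for MAdCAM-1. Itga6 pairs with Itgb1 as a laminin receptor, and Itgb3 pairs with Itgav or with the platelet chain Itga2b.

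The libraries held 12317507 to 12903191 counts in the mTOR-/- group and 14066578 to 14768126 in the WT group, and 12537 gene records passed the filter on low counts. A count of 0 allows up to 3 counts, which is 0.205 to 0.245 CPM (the count scaled to the size of its library) in these libraries, and such floors cover counting error only. Across the 12537 tested records the correlation of log2(CPM + 1) was 0.986 to 0.988 within the WT group. Within the mTOR-/- group it was 0.969 to 0.983, where replicate 3 stood apart with 0.972 and 0.969. Between libraries of different groups it was 0.955 to 0.978, a range that overlapped the one within the mTOR-/- group. For Mtor itself, 883, 983 and 908 reads were counted in mTOR-/- and 980, 875 and 929 in WT. The counts of the whole gene thus did not separate the groups (log2 fold change 0.15, SE 0.11, edgeR adjusted p = 0.442). The paper states that the depletion of mTOR was verified in MDSCs. Counts per exon were not available here, so loss of the floxed part of the gene could not be checked. The labels were taken as given. Lyz2, the lysozyme gene of the Cre driver, fell (log2 fold change -1.68, SE 0.20, edgeR adjusted p = 0.00255). Among markers of the sorted cells, the sum of 5 monocyte genes was 721 to 774 CPM in mTOR-/- and 552 to 644 CPM in WT, and 1 of the 5 was called (F13a1, which rose). Ly6c2, a gene of Ly6C, for which M-MDSCs are defined as high, went the other way, at 87.3 ± 16.0 CPM in mTOR-/- and 174 ± 55.5 CPM in WT (SD, n = 3 each; log2 fold change -0.999, edgeR adjusted p = 0.0426, just under the fold threshold). Of 7 neutrophil genes, with a median log2 fold change of -0.49, 1 rose and 1 fell. Ly6g, for which M-MDSCs are defined as negative, rose from 2.77 ± 2.13 to 13.3 ± 2.31 CPM (edgeR adjusted p = 0.0365). Ltf, the granule protein lactoferrin, fell from 18.1 ± 1.05 to 4.4 ± 1.23 CPM (edgeR adjusted p = 0.00214). Lymphoid markers summed to at most 4.28 CPM in any library, with Cd3e and Ncr1 at 0, and erythroid markers to at most 6.13 CPM. In these bulk samples, fewer cells of a type and less RNA per cell cannot be told apart.

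Itgb2 and Itgam had the highest RNA levels of the beta2 integrin chains in both groups. The minor alpha chains Itgad and Itgax had more reads in mTOR-/- M-MDSCs, and the chains Itgb7, Itga6 and Itgb3 had fewer. MDSCs are defined by CD11b, the product of Itgam, so a high Itgam level in both groups is not an independent result. Receptor proteins were not measured. For 5 of the 11 records the 3 mTOR-/- libraries did not overlap the 3 WT libraries, with 2 records higher (Itgad and Itgax) and 3 lower (Itgb7, Itga6 and Itgb3). Of all 12537 records tested, 28.4% did not overlap. With the call used here, an edgeR adjusted p under 0.05 together with a fold change of 2, 2 of the 11 records were called, against 1.69% of all records. The called record that was higher is Itgad (1.04% of all records were called higher), and the called record that was lower is Itgb3 (0.654% were called lower). These shares are printed for reference, and nothing is read from them because the members were chosen on the same contrast. Without mTOR-/- replicate 3, the library that stood apart, the log2 fold changes of these 5 genes were 6.17 (Itgad), 0.83 (Itgax), -0.80 (Itgb7), -0.60 (Itga6) and -1.66 (Itgb3). The median log2 fold change was -0.16 over the 11 records and 0.00 over all records tested.

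**Figure D1:**
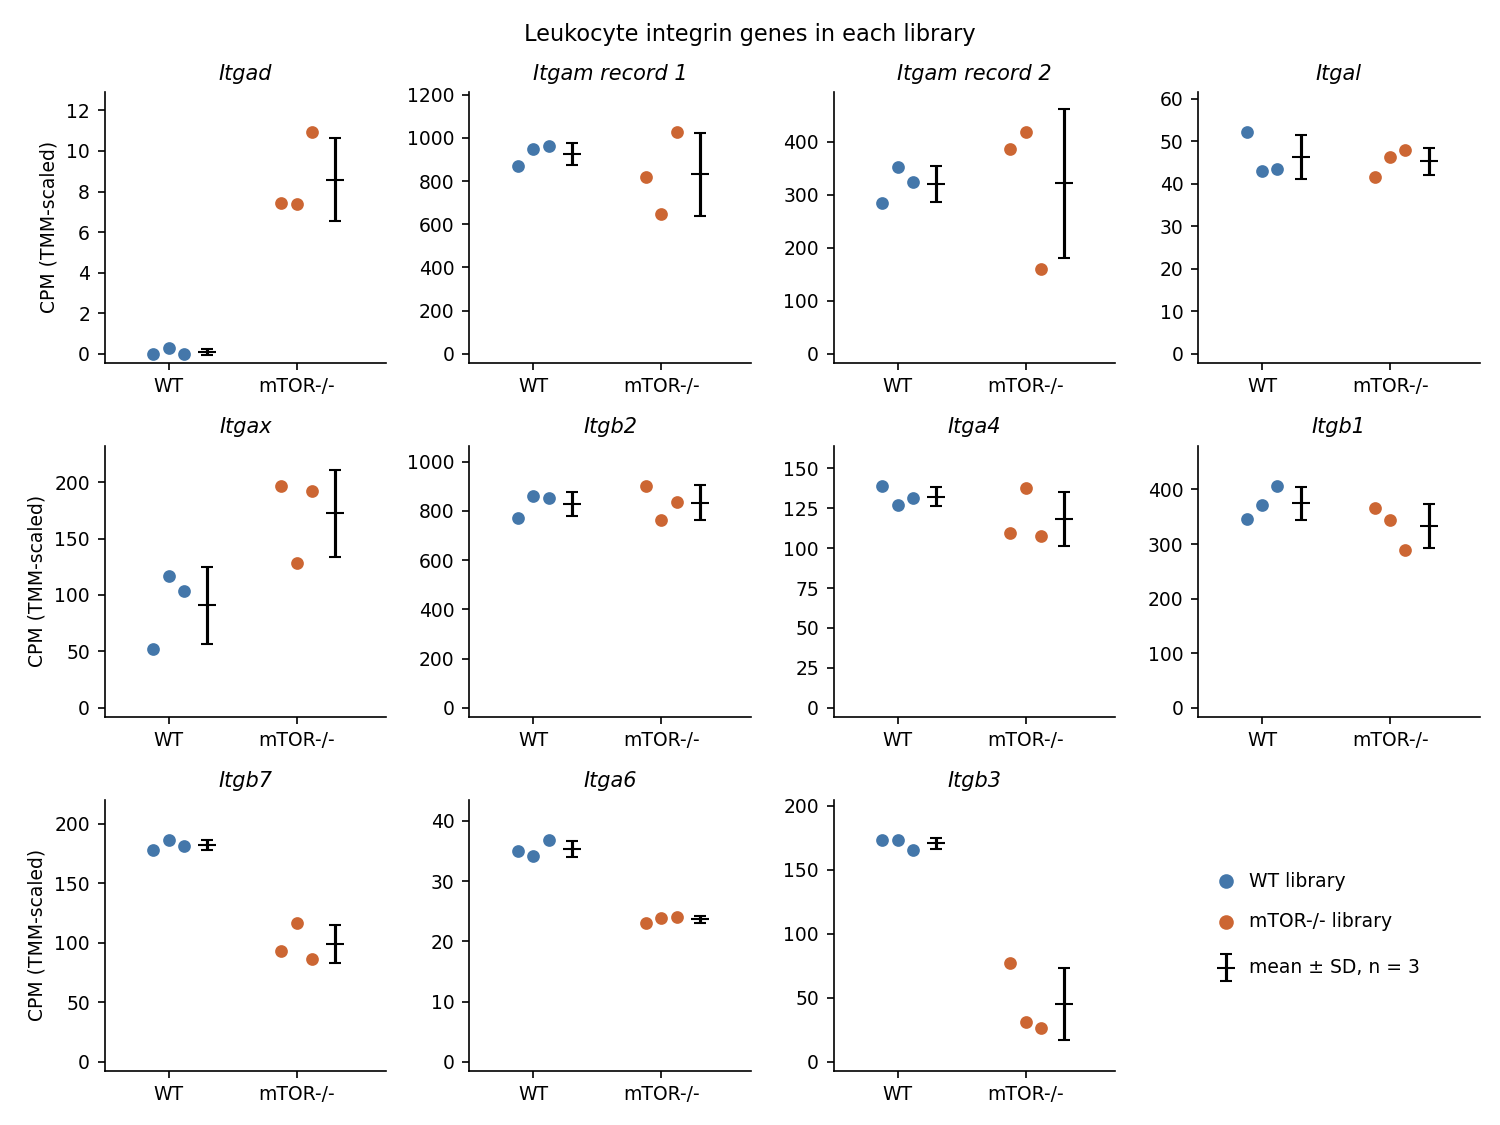
Scaled CPM of each integrin record (y axis, linear, one panel per record) in the 3 mTOR-/- and 3 WT libraries, where points are libraries and bars are the mean ± SD. Itgad is at 7.41 to 10.9 CPM in mTOR-/- and at 0 to 0.273 CPM in WT, whereas Itgb2 overlaps between the groups.

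Itgad, the alpha chain of CD11d/CD18, had next to no reads in WT cells and a low level in all 3 mTOR-/- libraries. It had 91, 96 and 143 counts in mTOR-/- replicates 1, 2 and 3, and 0, 4 and 0 counts in the WT replicates. Only WT replicate 2 held any Itgad reads, and every mTOR-/- library was far above it. In CPM scaled by TMM (a factor that corrects library sizes), the level was 8.59 ± 2.04 (SD, n = 3) in mTOR-/- and 0.0911 ± 0.158 in WT. The fitted log2 fold change was 6.39 (SE 0.74), a size that depends on the prior count because WT is near 0. Taken over the summed counts, 330 against 4, the ratio at equal depth was 93.4, with an exact 95% interval of 36.1 to 345 that covers counting error only. Without WT replicate 2 the other WT libraries held no count, and the mTOR-/- level was at least 40.2-fold higher than the floor of 3 counts per library. Itgad passed the filter on low counts only through the mTOR-/- libraries.

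CD11d marks some resident macrophages, so their markers were read in the same libraries. The 11 listed resident macrophage genes summed to 417 to 545 CPM in mTOR-/- and 565 to 645 CPM in WT, a sum made almost wholly of Adgre1 (F4/80), at 482 ± 70.1 and 614 ± 43.8 CPM (SD, n = 3 each; log2 fold change -0.35, edgeR adjusted p = 0.145). The median log2 fold change of the tested genes was 0.52, with 3 of 4 above 0. Among these 3, Mertk (13, 19 and 6 counts in mTOR-/-, 2, 5 and 14 in WT) overlapped between groups at low counts. C1qb (8, 21 and 8 counts in mTOR-/-, 11, 9 and 20 in WT) did so as well. Cd5l, Siglec1, Spic, C1qa and C1qc did not pass the filter on low counts. Timd4 and Marco were at 0 in all 6 libraries. Clec4f, a lectin known from Kupffer cells, was the listed gene that rose, with 86, 75 and 179 reads counted in mTOR-/- and 0 in every library of the WT group (edgeR adjusted p = 0.00236). Like Itgad, Clec4f passed the filter on low counts only through the mTOR-/- libraries. Replicate 3 of the mTOR-/- group was the highest library for Clec4f and for Itgad. It was the lowest of its group for Adgre1 (402 CPM) and for Mertk (6 counts), so the listed markers did not share 1 order of libraries. The part of such cells in the Itgad values was not tested.

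Itgax, which encodes CD11c, was 1.90-fold higher in the mTOR-/- cells. Its counts were 2412, 1658 and 2514 in mTOR-/- and 731, 1712 and 1451 in WT, where mTOR-/- replicate 2 and WT replicate 2 were close in raw counts. After scaling, the lowest mTOR-/- library (128 CPM) was still above the highest WT library (117 CPM), with means of 172 ± 38.4 and 90.8 ± 34.3 CPM (SD, n = 3 each). The log2 fold change was 0.92 (SE 0.27), and it lay between 0.64 and 1.15 when single libraries were left out. WT replicate 1 was the lowest library for Itgax, at 52.0 CPM. The 7 listed dendritic cell markers summed to 66.1 to 70.3 CPM in mTOR-/- and 16.4 to 43.6 CPM in WT, 1 of the 4 tested rose (Ccr7, the homing receptor of mature dendritic cells, log2 fold change 1.26, edgeR adjusted p = 0.0314) and Siglech was at 0. Most of that sum was Ccr7, at 58.7 ± 1.36 CPM in mTOR-/- and 24.6 ± 9.52 CPM in WT (SD, n = 3 each), while Flt3 (log2 fold change -0.46) and Clec9a (-0.39) had values on the other side of 0 and overlapped between groups. Their part in the Itgax values was not tested.

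Itgam, the gene of CD11b, was the most abundant alpha chain in every library and overlapped between groups. Its first record (ENSMUSG00000030786) had 10059, 8376 and 13440 counts in mTOR-/- and 12235, 13914 and 13488 in WT. The second record (ENSMUSG00000108596), which GENCODE M21 lists as Gm49368 and tags as a readthrough transcript, had 4748, 5428 and 2104 counts in mTOR-/- and 4011, 5173 and 4563 in WT. The records overlap on the same strand and share 3450 exon bases, 68.7% of the first and 71.8% of the second, so their separate counts depend on how shared reads were assigned. In mTOR-/- replicate 3 the first record was the highest and the second the lowest of that group, and the second record took 13.5% of the summed counts there, against 32.1% and 39.3% in replicates 1 and 2 and 24.7% to 27.1% in the WT libraries. Summed over both records, Itgam had 1154 ± 76.9 CPM in mTOR-/- and 1248 ± 81.3 CPM in WT (SD, n = 3 each). Taken singly, the first and second records had coefficients of variation of 23.0% and 43.6% in the mTOR-/- group. The log2 fold change was -0.11 (SE 0.10) for the sum, -0.16 (SE 0.15) for the first record and 0.01 (SE 0.29) for the second.

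Itgal, the alpha chain of LFA-1, had 511, 598 and 626 counts in mTOR-/- and 734, 630 and 611 in WT. The groups overlapped, at 45.2 ± 3.22 and 46.2 ± 5.14 CPM (SD, n = 3 each), with a log2 fold change of -0.03 (SE 0.13). Itgb2, the shared beta chain, had 11059, 9876 and 10951 counts in mTOR-/- and 10865, 12617 and 11945 in WT. Its level was 834 ± 69.5 and 828 ± 48.8 CPM, again overlapping, with a log2 fold change of 0.01 (SE 0.10).

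Levels of different genes were compared in FPKM, which divides by gene length. Of the summed FPKM of the 4 beta2 alpha chains, Itgam (both records) took 81.3%, 84.7% and 79.9% in mTOR-/- and 91.9%, 88.2% and 89.0% in WT. Itgax took 16.1%, 12.1% and 16.7% in mTOR-/- and 5.16%, 9.78% and 8.90% in WT. Itgad took 0.621%, 0.715% and 0.972% in mTOR-/- and 0%, 0.0233% and 0% in WT, so it stayed below 1% of the alpha chain level in every library. The Itgal share overlapped between groups, at 2.24 ± 0.282% and 2.35 ± 0.49% (SD, n = 3 each). The alpha chains together stood at 1.19, 1.22 and 1.21 times Itgb2 in mTOR-/- and at 1.15, 1.22 and 1.20 times Itgb2 in WT. The ratio of alpha to beta2 FPKM thus overlapped between groups while its makeup differed, with Itgam the larger share in WT and Itgax and Itgad the larger shares in mTOR-/-. Gene lengths from GENCODE M21 in place of those behind the deposited FPKM gave Itgad shares of 0.562%, 0.654% and 0.842% in mTOR-/- and Itgax shares of 14.0%, 10.6% and 13.9%.

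**Figure D2:**
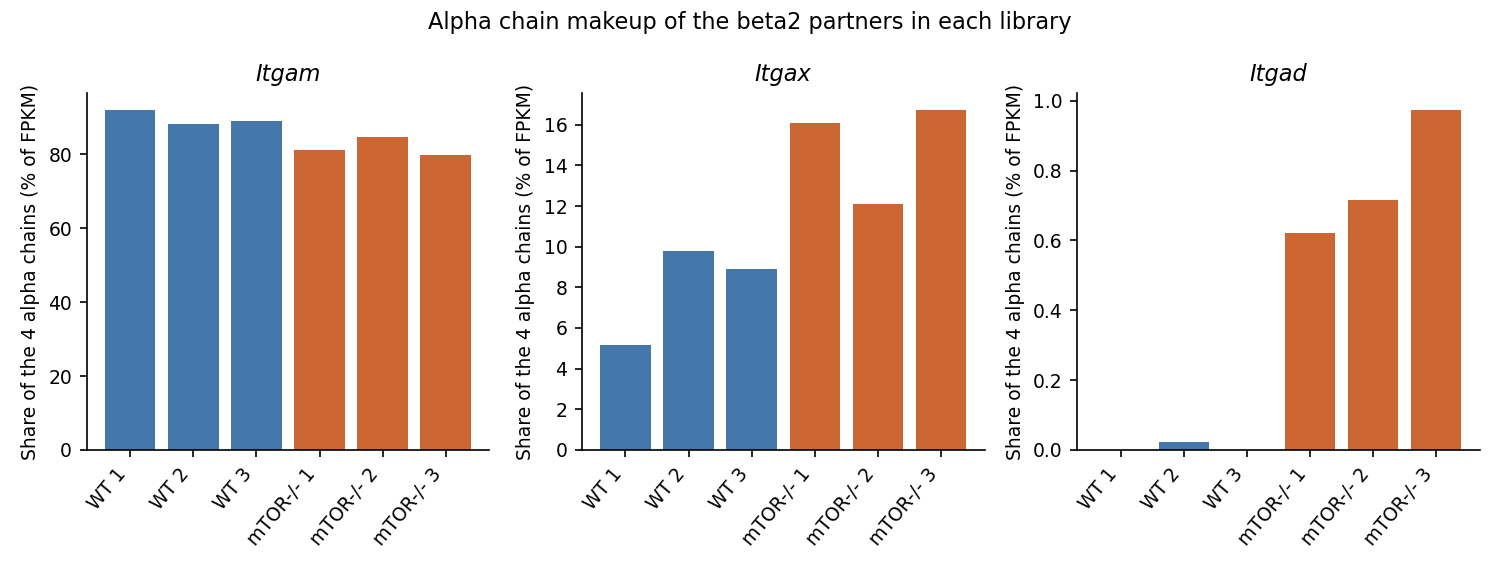
Share of each beta2 alpha chain in the summed FPKM of Itgam, Itgax, Itgal and Itgad (bars from 0, y axis in percent, one panel each for Itgam, Itgax and Itgad) in every library, with the 2 Itgam records added. Itgam takes 79.9% to 84.7% in mTOR-/- and 88.2% to 91.9% in WT, and Itgax takes most of the rest.

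Among the chains outside the beta2 family, Itgb7, Itga6 and Itgb3 were lower in the mTOR-/- cells in every library, and Itga4 and Itgb1 overlapped. Itgb7, the partner of Itga4 in the receptor for gut homing, had 1144, 1513 and 1133 counts in mTOR-/- and 2507, 2730 and 2544 in WT. Its level was 98.9 ± 15.8 CPM against 182 ± 4.20 CPM (SD, n = 3 each). The log2 fold change was -0.88 (SE 0.12), 1.84-fold lower and so under the fold threshold, with a range of -1.03 to -0.80 when single libraries were left out. The WT libraries lay between 178 and 186.5 CPM, and the mTOR-/- libraries between 86.7 and 117 CPM. Itga6 had 282, 310 and 315 counts in mTOR-/- and 492, 501 and 517 in WT. Its level was 23.7 ± 0.601 CPM against 35.3 ± 1.34 CPM, with a log2 fold change of -0.58 (SE 0.12).

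Itgb3, the beta chain of the vitronectin receptor, was the member with the lowest ratio of mTOR-/- to WT. Its counts were 948, 403 and 347 in mTOR-/- and 2437, 2530 and 2323 in WT. All mTOR-/- libraries were below all WT libraries, and mTOR-/- replicate 1 was well above the others of its group, at 77.3 CPM against 31.1 and 26.5 CPM. The level was 45.0 ± 28.1 CPM against 170.5 ± 4.38 CPM (SD, n = 3 each), 3.79-fold lower, with a log2 fold change of -1.92 (SE 0.34). Without mTOR-/- replicate 1 the log2 fold change was -2.57. Without WT replicate 1, 2 or 3 it was -1.92, -1.92 and -1.95. The coefficient of variation of Itgb3 was 62.4% in mTOR-/- and 2.57% in WT.

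Itga4 had 1342, 1783 and 1410 counts in mTOR-/- and 1955, 1856 and 1843 in WT, and mTOR-/- replicate 2 fell inside the WT range after scaling (log2 fold change -0.16, SE 0.11). Itgb1, the most widely shared beta chain, had 4502, 4454 and 3785 counts in mTOR-/- and 4859, 5447 and 5707 in WT, with overlapping CPM (log2 fold change -0.17, SE 0.11). Set against each other in FPKM, the Itgb7 level was 0.603 ± 0.0868 times the Itgb1 level in mTOR-/- and 0.988 ± 0.075 times in WT (SD, n = 3 each). The size of such ratios depends on the gene lengths used. With GENCODE M21 lengths, WT cells had Itgb1 at 91.8 ± 7.51 and Itgb7 at 65.7 ± 1.52 CPM per kb, so the near parity in WT was not kept. The corresponding ratio of Itgb3 to Itgb1 was 0.0857 ± 0.0452 in mTOR-/- and 0.300 ± 0.0312 in WT. For the alpha chains, Itga4 stood at 3.94 ± 0.528 times Itga6 in mTOR-/- and 2.96 ± 0.164 times in WT. None of these 3 ratios overlapped between the groups. Each holds a member that itself did not overlap (Itgb7, Itgb3 or Itga6) beside one that did. The ratios therefore restate those differences and add no support to them.

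Mast cells and basophils carry Itgb7, Itga4 and Itga2b, so their markers were read as well. The 6 listed genes summed to 357 to 450 CPM in mTOR-/- and 1125 to 1209 CPM in WT, and 2 of the 6 tested fell. These were Cpa3, the mast cell carboxypeptidase (log2 fold change -2.37, edgeR adjusted p = 9.53e-05), and Mcpt8, the basophil protease (log2 fold change -1.09, edgeR adjusted p = 0.0353). The sum was carried by Cpa3 (135 against 694 CPM) and Gata2 (213 against 368.5 CPM), while Fcer1a (log2 fold change 0.45), Ms4a2 (-0.65) and Prss34 (-0.57) overlapped between groups. The 4 eosinophil markers summed to 39.6 to 64.1 CPM in mTOR-/- and 93.4 to 110 CPM in WT, and 1 of the 3 tested fell (Prg2, a granule protein, log2 fold change -1.09, edgeR adjusted p = 0.00899). The 6 megakaryocyte markers, the cells best known for Itgb3 with Itga2b, summed to 433 to 580 CPM and 294 to 561 CPM, and 0 of the 4 tested were called. The part of these cells in the values of Itgb7, Itga6 and Itgb3 was not tested.

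In WT cells the order of levels by FPKM was Itgb2 (176), the first Itgam record (128), Itgb1 (65.7), Itgb7 (64.7), the second Itgam record (60.3), Itgb3 (19.6), Itgax (17.0), Itga4 (8.42), Itgal (4.87), Itga6 (2.85) and Itgad (0.0174). Itgb1 and Itgb7, Itgb7 and the second Itgam record, and Itgb3 and Itgax overlapped between neighbours. In mTOR-/- cells Itgb2 (180) and the first Itgam record (116) again led, followed by the second Itgam record (61.3), Itgb1 (59.3), Itgb7 (35.7), Itgax (32.7), Itga4 (7.63), Itgb3 (5.22), Itgal (4.83), Itga6 (1.94) and Itgad (1.66). There the overlapping neighbours were the second Itgam record and Itgb1, Itgb7 and Itgax, Itga4 and Itgb3, Itgb3 and Itgal, and Itga6 and Itgad. Itgb3 thus lay above Itgax in the WT order and below Itga4 in the mTOR-/- order, and Itgad lay far below Itga6 in WT and overlapped it in mTOR-/-. Parts of both orders depend on the gene lengths. With GENCODE M21 lengths, WT Itgb1 (91.8 CPM per kb) stood above the second Itgam record (66.9) and Itgb7 (65.7). In mTOR-/-, Itgb1 (81.7) then stood above the second Itgam record (67.1), and Itgax (35.9) was level with Itgb7 (35.7).

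**Figure D3:**
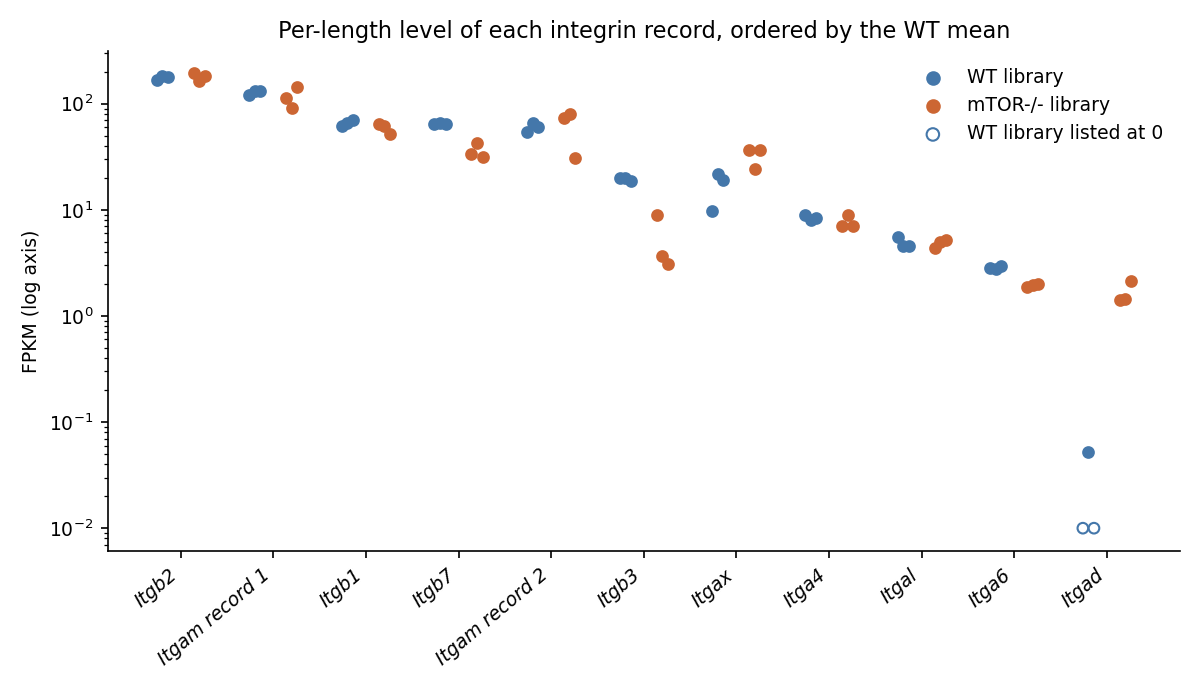
FPKM of the integrin records in the mTOR-/- and WT libraries on a log axis, where points are libraries and a value of 0 is drawn at 0.01. Itgb2 and Itgam lie at the top in both groups, and Itgad lies at 1.66 FPKM in mTOR-/- and at 0.0174 FPKM in WT on average.

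Itgam, Itgax and Itgad lie next to each other on the forward strand of chromosome 7 in the GRCm38 (mm10) build. The first Itgam record spans chr7:128062640-128118491, the second chr7:128062683-128128160, Itgax chr7:128129547-128150657 and Itgad chr7:128154376-128223816. From the end of the first Itgam record to the start of Itgax there were 11056 bases, from the end of the second 1387 bases, and from the end of Itgax to the start of Itgad 3719 bases. Itgal lies on the same chromosome at chr7:127296260-127335138. The other genes are apart: Itgb2 on chromosome 10, Itga4 and Itga6 on chromosome 2, Itgb1 on chromosome 8, Itgb7 on the reverse strand of chromosome 15 and Itgb3 on chromosome 11. Adjacent members of the chromosome 7 cluster therefore had log2 fold changes of -0.16 (Itgam), 0.92 (Itgax) and 6.39 (Itgad) from left to right.

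RefSeq promoters of GRCm38.p6 were given for 5 of the 10 genes (Itgam, Itgax, Itga4, Itgb1 and Itgb7). The 250 bases before the annotated start are printed for Itgam and Itgax, neighbours on chromosome 7 with unlike values, and for Itgb7, which was lower in every mTOR-/- library. They lie at chr7:128062390-128062639 (forward strand), chr7:128129300-128129549 (forward strand) and chr15:102231936-102232185 (reverse strand). Capitals mark matches to 3 motifs searched on both strands: the PU.1 core GAGGAA, the RUNX core TGTGGT and the Sp1 GC box GGGCGG, with no overlap among the matches.
Itgam: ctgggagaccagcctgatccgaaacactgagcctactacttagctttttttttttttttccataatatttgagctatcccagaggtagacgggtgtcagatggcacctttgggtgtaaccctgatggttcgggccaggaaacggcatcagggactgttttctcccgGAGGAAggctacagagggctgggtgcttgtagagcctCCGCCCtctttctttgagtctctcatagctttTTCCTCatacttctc
Itgax: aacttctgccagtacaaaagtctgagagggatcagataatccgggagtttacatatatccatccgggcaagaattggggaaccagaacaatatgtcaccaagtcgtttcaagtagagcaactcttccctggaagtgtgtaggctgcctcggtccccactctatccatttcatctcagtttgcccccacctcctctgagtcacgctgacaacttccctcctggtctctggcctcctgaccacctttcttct
Itgb7: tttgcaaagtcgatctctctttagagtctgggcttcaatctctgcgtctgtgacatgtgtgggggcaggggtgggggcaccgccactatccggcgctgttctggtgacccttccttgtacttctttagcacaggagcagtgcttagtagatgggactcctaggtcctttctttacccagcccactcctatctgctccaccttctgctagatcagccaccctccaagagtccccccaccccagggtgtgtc
PU.1, RUNX and Sp1 factors are known regulators of myeloid genes. The Itgam window held GAGGAA on the forward strand 84 bases before the start and, on the reverse strand, its complement 15 bases before (counted to the first base of each match), with a GC box 47 bases before. The Itgax and Itgb7 windows held none of the 3 motifs, which says only that these letters are absent from the windows. The Itga4 window held a RUNX core and a GC box, and the Itgb1 window a PU.1 core and a GC box. Of 32536 windows of the same length, 23.4% held the PU.1 core, 14.0% the RUNX core and 33.0% the GC box.

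Genes around the cluster were read to see whether the difference extended along the chromosome. Within 500 kb of Itgam, Itgax and Itgad, 58 records of other genes were listed and 26 were tested. None of the 26 was called by edgeR, where 7 had an unadjusted p under 0.05, and DESeq2 called 0. Across all 12537 records, edgeR called 1.69%, and 2657 had an unadjusted p under 0.05. These counts are printed for reference only. The median log2 fold change of the 26 neighbours was 0.12, against 0.00 over all records. Above 0 were 17 of 26 (50.6% of all records), and 11 of 26 did not overlap between groups (28.4% of all records). The left neighbour of Itgad is Itgax. The next record by start, RP23-144N15.7, lies within the Itgad span and held 2 counts in mTOR-/- replicate 1 and 0 elsewhere. Cox6a2, a cytochrome oxidase subunit named after its values were seen, lies on the opposite strand inside the Itgad span. It shares 70 exon bases with Itgad. Gm39091, also on the opposite strand, shares 102, and its exon length matches that of RP23-144N15.7, so the 2 names appear to be 1 gene. Cox6a2 had 766, 975 and 687 counts in mTOR-/- and 1072, 1060 and 898 in WT (log2 fold change -0.16, edgeR adjusted p = 0.558). The record with the highest log2 fold change of the 26, RP23-144N15.8, was picked once its values were known. This gene lies on the opposite strand within Itgad, shares 388 exon bases with it (8.6% of the Itgad exons), and had 18, 47 and 51 counts in mTOR-/- and 14, 6 and 14 in WT (log2 fold change 1.90, edgeR adjusted p = 0.112). Whether the counting used strand is not given in the sources used here, so reads on those shared bases cannot be assigned to either gene.

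**Figure D4:**
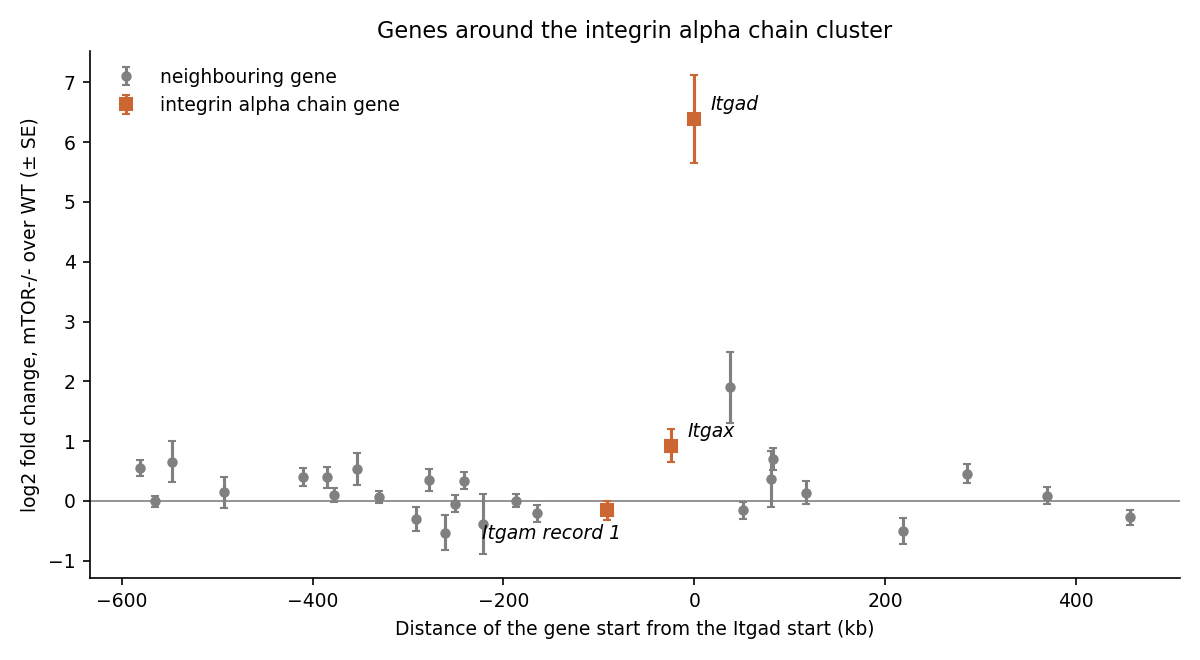
Log2 fold change, mTOR-/- over WT, with its SE, of the tested records within 500 kb of the Itgam to Itgad cluster, against the distance of each gene start from the Itgad start in kb (grey circles are other genes, squares are Itgam record 1, Itgax and Itgad). Itgad (6.39) lies above every neighbour, whose values run from -0.53 to 1.90.

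The 4 lists of related genes placed the members beside their partners, their cytoplasmic machinery and their ligands. For reference, edgeR called 1.04% of all 12537 records higher and 0.654% lower. Of 17 further integrin chains, 10 were tested and 1 fell, Itgb2l, a neutrophil-associated relative of Itgb2 (41, 46 and 32 counts in mTOR-/-, 125, 80 and 150 in WT). Its log2 fold change was -1.42 (SE 0.33, edgeR adjusted p = 0.0477), and the call was lost in each of the 6 fits that left out 1 library. The median of the 10 was -0.13. Itga2b, the partner of Itgb3 on platelets, was at 59.1 ± 14.8 CPM in mTOR-/- and 102 ± 5.26 CPM in WT (SD, n = 3 each), with a log2 fold change of -0.79 (SE 0.16, edgeR adjusted p = 0.0314) that stayed under the fold threshold. Itgav, the other alpha partner of Itgb3, differed little, at 74.1 and 78.7 CPM (log2 fold change -0.09, edgeR adjusted p = 0.726). Of the alpha partners of Itgb1 in the list, Itga1 had a log2 fold change of -0.12 (SE 0.12, edgeR adjusted p = 0.595) and Itga5 of -0.15 (SE 0.10, edgeR adjusted p = 0.410). Itga2, a collagen receptor chain close to the detection floor and named after its values were seen, was at 0.336 ± 0.513 CPM in mTOR-/- and 1.73 ± 0.410 CPM in WT, without overlap (log2 fold change -2.33, SE 0.96, edgeR adjusted p = 0.208).

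Of 18 genes that regulate integrin activation from inside the cell, activators and inhibitors together, 15 were tested. None was called by edgeR (4 had an unadjusted p under 0.05, and DESeq2 called 0). The median log2 fold change of this list was 0.08, which mixes activators with inhibitors and so gives no direction of activation. Talin 1 (Tln1), which opens the integrin head, was at -0.09 (edgeR adjusted p = 0.691), and kindlin 3 (Fermt3), its partner in blood cells, at 0.11 (edgeR adjusted p = 0.502). Flna and Rap1b, also among the highest of this list in mean CPM, were at 0.29 (edgeR adjusted p = 0.091) and -0.17 (edgeR adjusted p = 0.353). Of 29 genes of adhesion signalling, 26 were tested and none was called by edgeR (7 had an unadjusted p under 0.05, and DESeq2 called 0), with a median of 0.02. Both lists stand beside all 12537 records, of which edgeR called 1.69% and 2657 had an unadjusted p under 0.05. The 4 adhesion signalling genes with the highest mean CPM overlapped between groups. Their log2 fold changes were 0.05 (Syk), -0.07 (Vasp), -0.12 (Rac2) and 0.01 (Tyrobp). Pxn, the adaptor paxillin, and Ptk2b, the kinase Pyk2, passed the adjusted p but not the fold threshold, and were named after their values were seen. Pxn was at 262 ± 16.9 CPM in mTOR-/- and 158 ± 10.8 CPM in WT (log2 fold change 0.73, SE 0.09, edgeR adjusted p = 0.00384), and Ptk2b had a log2 fold change of 0.50 (SE 0.10, edgeR adjusted p = 0.0247).

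Of 22 integrin ligands, 11 were tested, 1 rose and none fell, and 8 were at 0 in all libraries, among them Madcam1 and Vtn, ligands of Itgb7 and Itgb3 receptors. Over all records tested, 1.04% were called higher and 0.654% lower. Fn1, fibronectin, bound by alpha4beta1 and alpha5beta1, had 10184, 8977 and 9009 counts in mTOR-/- and 3068, 5243 and 4047 in WT. It rose with a log2 fold change of 1.36 (SE 0.17, edgeR adjusted p = 0.00342) and was called in each of the 6 fits that left out 1 library. Thbs1, thrombospondin 1, was at 15230 ± 301 CPM in mTOR-/- and 8246 ± 86.1 CPM in WT (log2 fold change 0.89, edgeR adjusted p = 0.00507), under the fold threshold. Vcam1, Icam1 and Lama5 were named after their values were seen. Lama5, a laminin chain, was at 175 ± 25.5 CPM in mTOR-/- and 299 ± 40.2 CPM in WT (log2 fold change -0.78, edgeR adjusted p = 0.0154), without overlap and under the fold threshold. Vcam1, the ligand of alpha4 integrins, had a log2 fold change of 0.49 (edgeR adjusted p = 0.0888), and Icam1, the ligand of LFA-1 and Mac-1, 0.55 (edgeR adjusted p = 0.0678). The median over the 11 was 0.11.

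**Figure D5:**
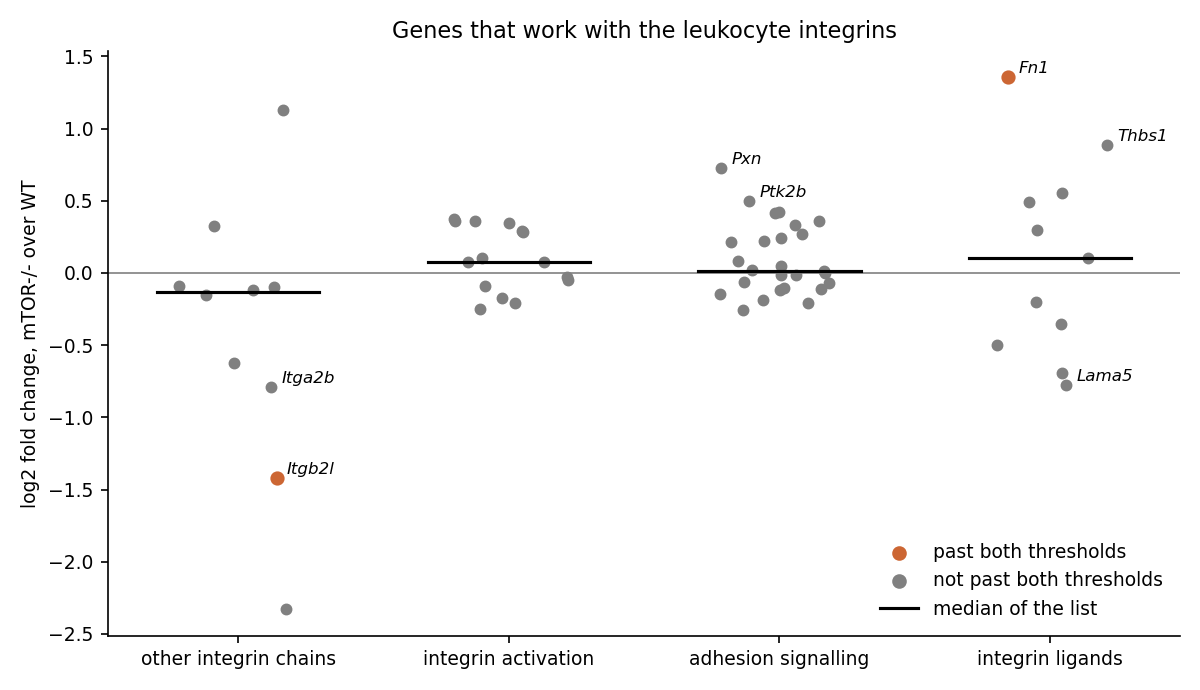
Log2 fold change, mTOR-/- over WT, of the tested genes of the 4 lists of related genes, one point per gene, with the median of each list as a line. The list medians run from -0.13 to 0.11, and Fn1 (1.36) and Itgb2l (-1.42) are the called genes of the lists.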

How the data were processed

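RNA of M-MDSCs from mTOR-/- and WT mice was sequenced in 3 libraries per group, grouped by the sample labels. The authors deposited whole-number read counts per gene and FPKM values. Their methods name Bowtie2, mm10, HTSeq and DESeq2, whereas the submitters' processing notes list HISAT2 2.0.4, StringTie 1.3.0, GRCm38.p4 and mm9 without roles, and the annotation release and strand setting are not given in the sources used here. Positions in the table were compared with GENCODE M21 on GRCm38. Another 24 columns of per-sample values in 2 further tables repeat these values and were not used, nor were the authors' own fold changes and p-values listed there.

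Counts were analysed in R 4.3.3 with edgeR 4.0.16 and limma 3.58.1, after filterByExpr (minimum count 10, minimum total 15) and TMM scaling. The comparison used edgeR's quasi-likelihood test, with p-values adjusted by the Benjamini-Hochberg method over all 12537 tested records, and a record was called where its adjusted p was under 0.05 and its change at least 2-fold. The SE is the log2 fold change divided by the square root of F. The procedure was tested on simulated data. FPKM values served only to compare levels between genes. The alternatives were DESeq2 1.42.0, RLE and upper-quartile scaling, other filters, no fold threshold, a replicate block, each library left out, log2(FPKM + 0.1), and, chosen after seeing the data, both Itgam records summed and GENCODE M21 lengths.

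The members and lists were chosen with earlier results of these data known. Besides the members, Mtor and Lyz2, the genes named are the list genes past the thresholds (at most 8 a list), the 4 with the highest mean CPM in a list, the neighbours of Itgad, and markers at 0 or past the thresholds. Others are marked where they appear, except marker genes named to show what makes up the sum or median of a list. Promoters are RefSeq windows of GRCm38.p6.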

Additional observations from a re-analysis of the deposited data

How the results depend on the processing

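Across the alternatives 8 of the 11 integrin records kept the sign of their log2 fold change, and the exceptions were Itgal, Itgb2 and the second Itgam record, whose values lay near 0 (-0.08 to 0.06, -0.05 to 0.06 and -0.24 to 0.32 when single libraries were left out). No value of a called record changed sign. Of 12537 records, 212 were called by edgeR, against 348 by DESeq2 and 507 with no fold change threshold, and 114 to 229 when single libraries were left out. Among the 11 integrin records 2 were called, against 1 (Itgb3) with at least 10 counts in every library, where Itgad was not tested, 4 with no fold change threshold (Itgb7 and Itga6 in addition) and 1 to 3 when single libraries were left out. The count of 3 came without mTOR-/- replicate 2, with Itgb7 in addition, and the count of 1 without WT replicate 1, 2 or 3, when Itgb3 was lost while its log2 fold change was -1.92, -1.92 and -1.95. These counts describe the thresholds and support nothing about the members, which were chosen on this contrast. Without a fold change threshold, 2 further integrin chains, 2 adhesion signalling genes and 3 ligands were called, in place of 1, 0 and 1. The count of further chains was 0 to 1 when single libraries were left out. The log2 fold change of Itgad was 5.85, 9.83 and 5.86 without WT replicate 1, 2 and 3, and 3.92 on log2(FPKM + 0.1), a scale that understates low genes.

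Same-numbered libraries had correlations of deviations from the group mean of -0.0965, -0.0686 and -0.0978, and differently numbered ones of 0.0193 to 0.0765. Deviations of the 3 libraries of a group sum to 0, so these values are tied together. They cannot show whether the replicate numbers mark a shared preparation. With the replicate number as a block, 164 records were called, among them 2 integrin records and 0 further chains. Depth limits Itgad in WT, where 2 of 3 libraries held no count.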
